A study of Mus musculus with 6 samples.

Results

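The genes described here encode the enzymes that attach a water-soluble group to reactive or lipid-soluble compounds, together with the enzymes that open epoxides and oxidise aldehydes. They were taken by name from the table of all samples: every gene whose symbol starts with Ugt, Sult, Mgst, Ephx or Aldh followed by a digit, or with Gst, a class letter and a digit. The rule used no expression value, and it found 64 of the 13026 genes in the table: 16 UDP-glucuronosyltransferases (Ugt), 6 cytosolic sulfotransferases (Sult), 19 soluble glutathione S-transferases (Gst), 2 microsomal glutathione S-transferases (Mgst), 2 epoxide hydrolases (Ephx) and 19 aldehyde dehydrogenases (Aldh). RNA had been sequenced from kidneys of adult male mice on a C57BL/6J background, kept free of specific pathogens, in 3 samples of genotype LIGHT+/+ (wild type) and 3 of genotype LIGHT-/- (knockout). LIGHT is the TNF superfamily cytokine encoded by Tnfsf14. All 6 samples, knockout and wild type alike, came from mice whose kidneys had both been made ischemic for 32 min and reperfused for 24 h, so that every value below is a value in an injured kidney, and kidneys without the operation were not analysed here. The labels number the samples 1 to 3 within a genotype but do not say that each is a different mouse, so a p-value below reflects only how far these samples scatter, which may be technical. The labels do not describe how the LIGHT allele was made, or whether the 2 genotypes were littermates. Values are FPKM (fragments mapped to a transcript, set per length and per depth of the library), and can therefore be compared between genes.

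Detoxification by conjugation joins a small polar molecule to a drug, hormone, bile pigment or product of lipid oxidation, which can then leave through efflux pumps. UDP-glucuronosyltransferases take glucuronic acid from UDP-glucuronic acid, sulfotransferases take sulfate from PAPS, and glutathione S-transferases join the tripeptide glutathione to electrophiles. Epoxide hydrolases add water to epoxides, and aldehyde dehydrogenases oxidise aldehydes, among them those that arise from lipid peroxidation and from the breakdown of amino acids. The proximal tubule, the segment that ischemia injures most, is the part of the kidney known for these activities.

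The genes lie on 16 chromosomes, with several families in tandem clusters, as placed by the GENCODE M21 annotation of the mm10 (GRCm38) genome, where all 64 identifiers were found. Clusters of near copies matter for the values, since reads from a shared stretch can be divided between genes. On chromosome 1, 8 Ugt1a genes overlap on the same strand, each with its own first exon and with the last exons in common. Chromosome 3 carries the 6 Gstm genes, and chromosome 5 holds 5 Ugt2 genes beside Sult1b1, Sult1d1 and Sult1e1. Gsta1 (chr9:78230656-78242684, plus strand) and Gsta2 (chr9:78331018-78355788, minus strand) point towards each other, and Gstp1 (chr19:4035407-4037985, minus strand) lies next to Gstp2 (chr19:4040285-4046023, minus strand). Of the exonic 31-base words of Gsta1, 80.3% also occur in Gm3776, a further alpha-class copy that was not analysed here. In all, 13 of the 64 genes have at least 50% of their words in 1 or more other genes, summed over those genes.

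Promoter sequences are shown first for 3 alpha-class transferases, because Gsta1 and Gsta2 were lower and Gsta3 was higher on average in the knockout. They come from RefSeq on GRCm38.p6, run from 250 bases before the annotated start to the last base before any annotated exon, and are written 5′ to 3′ on the strand of the gene. They lie at chr9:78230419-78230655 (plus), chr9:78347169-78347395 (minus) and chr1:21240335-21240584 (plus). Capitals mark TGACNNNGC, the core of the antioxidant response element, the site through which NRF2 is known to induce conjugating enzymes.
Gsta1: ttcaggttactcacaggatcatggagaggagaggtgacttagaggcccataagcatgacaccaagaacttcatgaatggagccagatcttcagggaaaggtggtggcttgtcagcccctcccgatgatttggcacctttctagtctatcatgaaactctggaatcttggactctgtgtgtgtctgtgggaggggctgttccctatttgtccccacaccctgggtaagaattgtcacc
Gsta2: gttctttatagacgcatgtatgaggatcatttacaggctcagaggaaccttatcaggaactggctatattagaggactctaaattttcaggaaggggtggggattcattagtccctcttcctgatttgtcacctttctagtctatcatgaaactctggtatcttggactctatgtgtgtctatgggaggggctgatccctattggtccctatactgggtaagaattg
Gsta3: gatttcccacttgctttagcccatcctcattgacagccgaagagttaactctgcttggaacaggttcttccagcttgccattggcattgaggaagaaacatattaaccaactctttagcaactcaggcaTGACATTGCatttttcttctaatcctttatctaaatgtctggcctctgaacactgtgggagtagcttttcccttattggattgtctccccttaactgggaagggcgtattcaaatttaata
In a global alignment the Gsta1 and Gsta2 sequences were 70.56% identical, and the Gsta3 sequence was 54.38% identical to that of Gsta1 and 51.22% to that of Gsta2. Of the 3 sequences, that of Gsta3 alone holds the core, followed by an A. Bases further upstream than 250 from the start were not searched.

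Over both strands of the window from 250 bases before to 50 bases after the start, TGACNNNGC occurred in 6 of the 54 genes that have such a window in RefSeq (11.1%): Gsta3, Gstm5, Gstm7, Mgst1, Aldh1a2 and Aldh9a1. Over all 27025 genes with a window the share was 14.0%. The longer form, with an A after TGACNNNGC, occurred in Gsta3 alone (1.85%, against 3.45% of all genes). The full palindrome of the hepatocyte nuclear factor HNF1, which is GTTAAT, any base and ATTAAC, occurred in none of the 54, against 0.011% of all. Shorter and related motifs were searched after the values had been seen. TGANTCAGC, which takes in the AP-1 site and overlaps TGACNNNGC where its N is C, occurred in 2 of the 54 (3.70%, against 1.37% of all genes), Gstp1 and Gstp2, and their windows are shown because the 3 knockout values of both genes lay under the 3 wild-type values. These lie at chr19:4037967-4037996 and chr19:4042291-4042320, both minus, with the motif in capitals, and all 30 bases are identical. Unlike the alpha-class sequences, they were not cut at annotated exons. By the GENCODE positions above, the Gstp1 window runs into the gene and the Gstp2 window lies within it. The 2 genes are near copies, so their matches are not independent.
Gstp1: tccaacgtgtTGAGTCAGCatccggggcgg
Gstp2: tccaacgtgtTGAGTCAGCatccggggcgg
A shorter HNF1 core, GTTAAT followed by any base and ATT, occurred in 4 of the 54 (7.41%, against 0.47% of all genes), namely Ugt1a1, Ugt1a9, Ugt1a10 and Sult1d1. Of the 4 matches, 3 belong to alternative first exons of the same Ugt1a locus, and those of Ugt1a9 and Ugt1a10 are nearly alike from the core onwards. The matches are thus not independent, and the share is no measure of enrichment. The windows are shown because of the shared locus. They lie at chr1:88211889-88211948 (plus), chr1:88070659-88070718 (plus), chr1:88055311-88055370 (plus) and chr5:87569051-87569110 (minus), with capitals marking the core, which in the 3 Ugt1a windows lies on the opposite strand.
Ugt1a1: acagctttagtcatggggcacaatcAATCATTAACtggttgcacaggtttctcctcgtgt
Ugt1a9: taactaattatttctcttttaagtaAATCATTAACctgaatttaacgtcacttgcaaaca
Ugt1a10: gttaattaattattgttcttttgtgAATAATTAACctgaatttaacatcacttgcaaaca
Sult1d1: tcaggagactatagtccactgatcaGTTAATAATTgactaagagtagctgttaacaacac
A match of letters is a description and no evidence that a factor is bound there.

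The injured kidney expressed most of these enzymes at high levels. Of the 64 genes, 10 averaged at least 100 FPKM over the 6 libraries, 36 lay between 10 and 100, 10 between 1 and 10, and 8 below 1. The most abundant was Gsta2 (284 FPKM), followed by Gstp1 (278), Ugt2b38 (226), Gstm1 (216), Sult1d1 (198), Ugt3a2 (190), Ephx2 (176) and Aldh6a1 (163). Together the 64 genes held between 0.882 and 1.23% of the summed FPKM of a library. The deposited table keeps a gene only where its higher group mean reaches 0.50043 FPKM, and 5 of the 64 (Aldh1a3, Aldh3b2, Gsto2, Sult1e1 and Ugt2a3) had a mean under 0.5 in the other group, so that they are listed through the group in which they are high. A gene listed that way had to differ between the groups, so no test is given for these 5 singly. Aldh1a3, Sult1e1 and Ugt2a3 reached the test through their high group and are part of the counts of 62 below, which are therefore also given without them.

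FPKM summed to between 299667 and 318493 per library over all genes, and the number of reads behind them is unknown. The level of Tnfsf14 itself was not analysed here, which leaves the genotypes as the labels state them. Markers of kidney segments were present in every library, among them Slc34a1 (289.5 to 875 FPKM) and Lrp2 (54.3 to 157) of the proximal tubule and Umod (339.8 to 696) of the thick ascending limb. Knockout library 3 stood apart. Its log2 values correlated with those of the other libraries at 0.934 to 0.956, whereas the other 5 correlated among themselves at 0.976 to 0.989. Its summed injured-tubule markers, 10 genes, came to 1795 FPKM against 5094 to 6733 in the other 5, its 6 adipocyte markers to 131 against 12.8 to 21.3, its 7 collecting duct markers to 465 against 101 to 180 and its 6 urothelial markers to 47.3 against 1.86 to 12.1. The fat cell genes Cfd and Adipoq were listed at 63.6 and 13.1 FPKM in that library and at no more than 0.147 elsewhere. The main counts below are therefore also given without it.

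No conjugating or aldehyde-oxidising enzyme passed the test between knockout and wild type, yet more of them stood higher than lower in the knockout. The test was limma on log2(FPKM + 1), two-sided, with Benjamini-Hochberg adjustment over the 12836 genes that averaged 0.5 FPKM or more, 62 of the 64 among them. Over all genes it called 15 (0.117%), 3 higher and 12 lower, at an adjusted p below 0.05, and it called 0 of the 62 enzymes. At an unadjusted p below 0.05 there were 12 of the 62, 9 higher and 3 lower, where the background over all genes was 8.08% (4.34% higher and 3.74% lower). The log2 fold change lay above 0 in 42 of the 62, against 47.9% of all genes, and its median was 0.14, against -0.0097 over all genes. In 11 enzymes all 3 knockout values lay above all 3 wild-type values (background 7.76%), and in 4 all lay below (background 8.8%). The 11 were Sult1c2, Aldh1l1, Aldh4a1, Aldh5a1, Aldh6a1, Aldh9a1, Aldh16a1, Gsta3, Gstz1, Ugt8a and Ugt2a3, and the 4 were Gsta1, Gsta4, Gstp1 and Gstp2. Of the 59 enzymes with both group means at 0.5 FPKM or more, 40 had a fold change above 0 (background 47.6%), 8 higher and 3 lower passed an unadjusted p of 0.05 (background 4.24% and 3.65%), and 10 were separated upwards and 4 downwards (background 7.61% and 8.74%). Without knockout library 3, all enzymes tested, the fold change lay above 0 in 37 of 61 (background 46.4%), the median was 0.087, and 13 were separated upwards (background 11.2%) and 6 downwards (background 12.7%). Without any other single library 0 of the enzymes passed either, while the count over all genes became 7 on leaving out knockout library 1, 6 for wild-type library 2, and 0 for knockout library 2, wild-type library 1 or wild-type library 3. The enzymes separated upwards numbered 19 when either library 1 was left out. No share over all genes was taken for those fits, so 19 cannot be set against 11. In whole-kidney RNA, fewer cells of a type and less RNA per cell cannot be told apart.

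**Figure D1:**
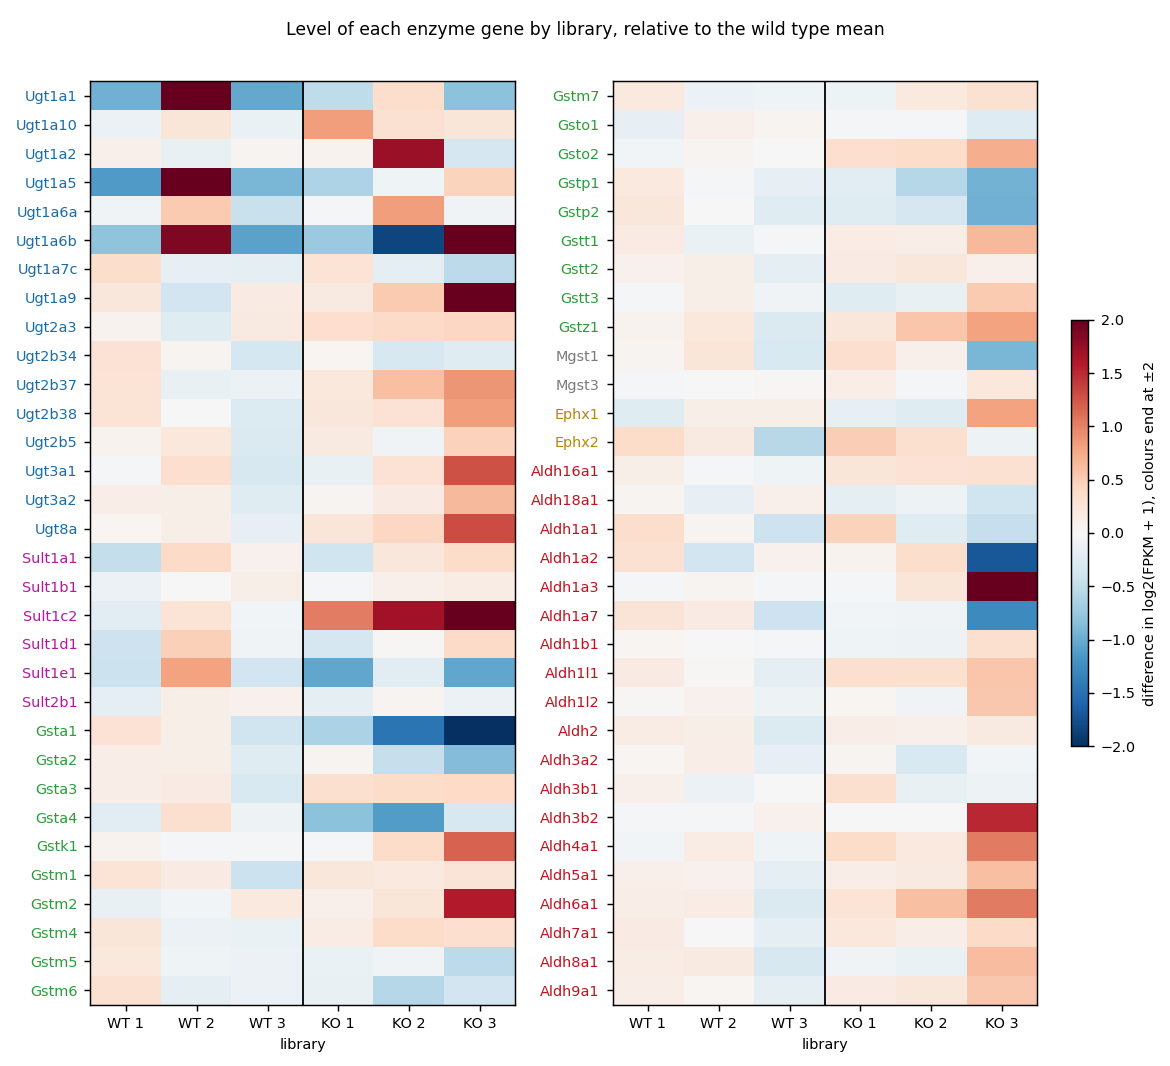
Level of each of the 64 enzyme genes in each of the 6 libraries (WT, wild type; KO, LIGHT knockout), as the difference in log2(FPKM + 1) from the mean of the 3 wild-type libraries, with names coloured by family. Knockout library 3 holds the highest value of 32 of the 62 genes tested, and wild-type library 3 the lowest of 26.

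By family, the fold changes are given as descriptions. Over all genes 47.9% lay above 0, with a median of -0.0097. In the Ugt family 12 of 16 genes had a fold change above 0, with a median of 0.33. Among the aldehyde dehydrogenases 13 of 18 did, with a median of 0.15, and both epoxide hydrolases did (median 0.18). The soluble glutathione S-transferases were mixed, with 10 of 18 above 0 and a median of 0.09. The sulfotransferases, 4 of 6 above 0, had a median of 0.04. The 2 microsomal transferases lay on either side of 0 (median -0.027). These counts and medians include Ugt2a3, Aldh1a3 and Sult1e1, which are listed through 1 group. A level filter at 1 FPKM, which removes Ugt2a3 and Sult1e1 among others, gave medians of 0.29 (Ugt) and 0.063 (Sult). Without knockout library 3 the medians were 0.19 (Ugt), 0.12 (Aldh), 0.10 (Ephx), 0.011 (Gst), -0.074 (Sult) and 0.13 (Mgst), so that the last 2 changed sign. The Sult median was also below 0 without wild-type library 1 (-0.17), and the Mgst median above 0 without wild-type library 2 (0.035) or with each library scaled to the same FPKM sum (0.012). With 1 library left out, the Ugt median ran up to 0.50 (without wild-type library 2), the Aldh median from 0.074 (wild-type library 3) to 0.27 (knockout library 2), the Ephx median from 0.075 (wild-type library 3) to 0.26 (wild-type library 2) and the Gst median from 0.0096 (wild-type library 3) to 0.18 (knockout library 1). Whether families differ from each other was not tested.

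**Figure D2:**
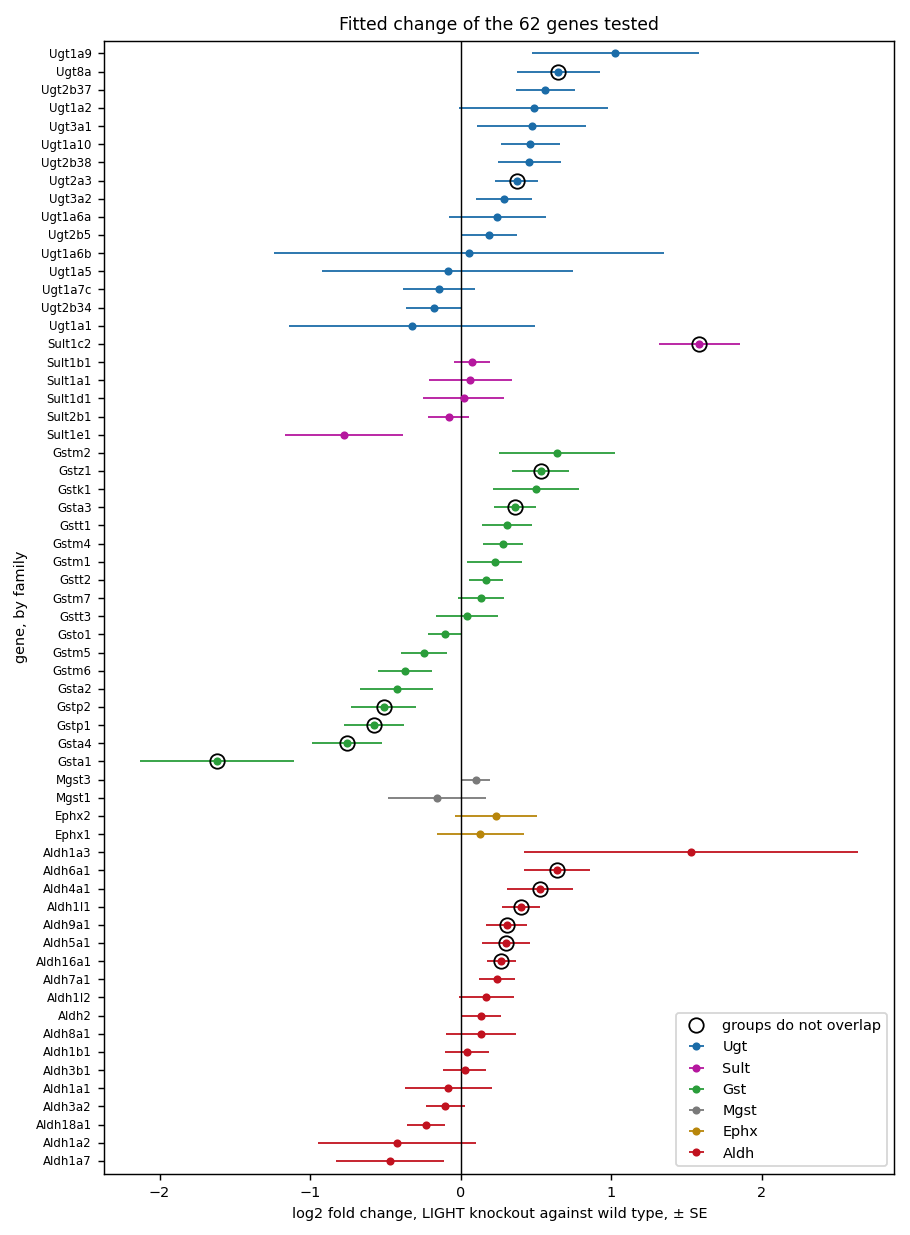
Fitted log2 fold change of the 62 genes tested, knockout against wild type, with bars of 1 standard error, sorted within each family and coloured by it. Circles mark the 15 genes whose groups do not overlap, 11 to the right of 0 and 4 to the left; the widest bars belong to Ugt1a6b and Aldh1a3.

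Among the glutathione S-transferases the 4 genes whose groups were separated downwards belonged to the alpha and pi classes (background 8.8%), and 2 genes, Gsta3 and Gstz1, were separated upwards (background 7.76%). Gsta1, an alpha-class enzyme that joins glutathione to many electrophiles, measured 104, 92.7 and 64.3 FPKM in wild-type libraries 1 to 3 and 54.4, 30.4 and 11.7 in knockout libraries 1 to 3. Every knockout library lay below every wild-type library, and knockout library 3 was the lowest. The log2 fold change was -1.62 ± 0.51 (SE, n = 3 a group; limma adjusted p = 0.592), and -1.05 without that library. Gsta2, the most abundant enzyme of all, measured 349.7, 347 and 269.8 FPKM in the wild type and 334, 231 and 175 in the knockout, with knockout library 1 inside the wild-type range (-0.42 ± 0.24, limma adjusted p = 0.624). Since reads of Gsta1 and Gsta2 can be divided between them, their FPKM were also summed. The sums were 454, 439 and 334 in the wild type and 388, 261 and 187 in the knockout, which overlap, and the log2 fold change of the sum was -0.60 ± 0.27 (limma adjusted p = 0.595).

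Gsta4, the alpha-class enzyme known for clearing 4-hydroxynonenal, a product of lipid peroxidation, measured 44.2, 64.8 and 47.8 FPKM in the wild type and 28.6, 23.3 and 41.0 in the knockout. The groups did not overlap, and here knockout library 3 was the one nearest to the wild type (-0.76 ± 0.23, limma adjusted p = 0.592; -0.97 without it). Gsta4 shares no 31-base word with another gene. Gsta3, on another chromosome, went the other way: 23.1, 23.7 and 16.8 FPKM in the wild type and 26.5, 27.4 and 27.8 in the knockout, all 3 knockout libraries within 1.29 FPKM of each other and above the wild type (0.36 ± 0.14, limma adjusted p = 0.592). Its promoter above holds the antioxidant response core. The other genes with that core had fold changes of -0.24 (Gstm5), 0.14 (Gstm7), -0.16 (Mgst1), -0.42 (Aldh1a2) and 0.31 (Aldh9a1). Whether the core plays a part in any of these values was not tested.

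Gstp1, the pi-class enzyme and the second most abundant gene here, measured 378, 319 and 294 FPKM in the wild type and 284, 221 and 170.5 in the knockout. Its neighbour Gstp2 measured 46.3, 39.3 and 33.2 and 33.0, 30.7 and 19.8. In both genes the highest knockout library lay just under the lowest wild-type library, and the gap for Gstp2 was 0.16 FPKM. Their fold changes were -0.57 ± 0.20 and -0.51 ± 0.22 (limma adjusted p = 0.592 for each), and that of the summed pair -0.57 ± 0.20. Under median-of-ratios or upper-quartile scaling of the libraries the groups of both genes overlapped.

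Genes of the other soluble classes stood on both sides of 0. Gstz1, which acts as maleylacetoacetate isomerase in the breakdown of tyrosine, measured 78.2, 86.7 and 61.2 FPKM in the wild type and 87.3, 110.4 and 132 in the knockout. Its lowest knockout library, 1, lay 0.65 FPKM above the highest wild-type library (0.53 ± 0.19, limma adjusted p = 0.592). Gstm2, a mu-class enzyme and the one with the largest fold change above 0 in the family, owed its value to a single library: 11.2, 11.9 and 14.4 FPKM in the wild type against 13.4, 14.8 and 39.3 in the knockout (0.64 ± 0.38, limma adjusted p = 0.635; 0.17 without knockout library 3). The 6 mu-class genes ran from -0.37 (Gstm6) to 0.64 with 4 above 0, and the 3 theta-class genes from 0.043 to 0.31, all above 0, without separation of the groups in either class. Gstk1, a mitochondrial and peroxisomal enzyme, had a fold change of 0.50 (0.17 without knockout library 3), and Gsto1, of the omega class, one of -0.10. Gsto2 fell under the level filter, with 0.0330, 0.117 and 0.0868 FPKM in the wild type and 0.354, 0.389 and 0.794 in the knockout. Summed over classes, the alpha transferases came to 521, 528 and 399 FPKM in the wild type and 443, 312 and 256 in the knockout, whereas the mu class came to 394, 349 and 276 against 359, 362 and 365.

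The microsomal transferases, membrane proteins of the endoplasmic reticulum and mitochondria, had overlapping groups. Mgst1 measured 79.6, 90.3 and 62.0 FPKM in the wild type and 96.8, 82.0 and 40.3 in the knockout, where library 1 was the highest of the 6 and library 3 the lowest (-0.16 ± 0.33, limma adjusted p = 0.884; 0.22 without knockout library 3). Mgst3 varied little, with 77.4, 79.8 and 80.2 FPKM in the wild type and 86.6, 77.0 and 92.1 in the knockout (0.10 ± 0.10, limma adjusted p = 0.736). The highest library was 1.20 times the lowest.

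The sulfotransferase Sult1c2 showed the clearest difference of the 62 genes. It measured 20.3, 29.2 and 22.8 FPKM in the wild type and 49.5, 78.7 and 102 in the knockout, and the lowest knockout library lay well above the highest wild-type library. The means were 24.1 ± 4.56 and 76.8 ± 26.4 (SD, n = 3), and the log2 fold change was 1.59 ± 0.27, a 3.00-fold difference on the log2(FPKM + 1) scale. The limma adjusted p of 0.295 was the smallest of the 62 and did not pass. Without knockout library 3 the fold change was 1.35. When limma weighted the libraries by their quality, Sult1c2 passed, with an adjusted p of 0.0266. Sult1c2 (chr17:53829637-53846339, minus strand) is also the only one of the 64 on the chromosome of Tnfsf14, 3.34 Mb from it. A difference that comes with the DNA around the LIGHT allele and one that comes with the loss of LIGHT cannot be told apart here. Of the 57 genes tested within 5 Mb of Tnfsf14, 3 stood higher without overlap (5.26%, background 7.76%), 4 lower (7.02%, background 8.8%), and 0 passed the test (6 at an unadjusted p below 0.05), and Sult1c2 had the largest fold change of them.

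The other sulfotransferases did not share this difference. Sult1d1, which sulfates catecholamines in rodents and was the most abundant of the family, measured 144, 267 and 182 FPKM in the wild type and 151, 193 and 250.2 in the knockout, with both groups spread over nearly the same range (0.022 ± 0.27, limma adjusted p = 0.983). Sult1e1, the estrogen sulfotransferase, measured 0.537, 2.62 and 0.582 FPKM in the wild type and 0, 0.757 and 0 in knockout libraries 1 to 3, where it was listed at 0 in libraries 1 and 3. Wild-type library 2 was the high one for this gene, and the fold change was -0.77. Sult1a1, a phenol sulfotransferase, ran from 3.39 to 6.92 FPKM over the 6 libraries, and Sult1b1 and Sult2b1 stayed under 1 FPKM, each with a fold change between -0.079 and 0.075. The 4 genes that reached their highest value in wild-type library 2 were all of the family but Sult1c2 and Sult1b1.

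Of the glucuronosyltransferases, those outside the Ugt1a locus were mostly higher in the knockout, and most of all in library 3. Ugt2b38, the third most abundant of the 64, measured 227, 187 and 155 FPKM in the wild type and 221, 230.4 and 336 in the knockout, with libraries 1 and 2 close to wild-type library 1 (0.46 ± 0.21, limma adjusted p = 0.595; 0.26 without knockout library 3). Ugt3a2, of a subfamily that uses sugars other than glucuronic acid, measured 184, 182 and 143 and 176, 189 and 264 (0.29 ± 0.19, limma adjusted p = 0.653; 0.11 without it). The 2 genes thus had overlapping groups, set apart by the one library. Ugt8a, which makes galactosylceramide for membranes and is no detoxifying enzyme, did not overlap: 16.4, 17.4 and 14.0 FPKM against 18.9, 21.5 and 40.6 (0.65 ± 0.27, limma adjusted p = 0.592; 0.33 without it). Chosen after the values were seen, Ugt2b37 had a fold change of 0.56 and 0.41 without that library. Ugt3a1 and Ugt2b5 were at 0.47 and 0.19 (0.075 and 0.052 without it), and Ugt2b34 at -0.18. Ugt2a3, below 1 FPKM throughout, measured 0.458, 0.168 and 0.573 in the wild type and 0.749, 0.803 and 0.842 in the knockout, and is in the table through its knockout mean. The 5 Ugt2 genes summed to 289, 242 and 201 FPKM in the wild type and 281, 293 and 415 in the knockout.

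Within the Ugt1a locus single libraries held the extremes, and no gene separated the groups. Ugt1a1, the enzyme that conjugates bilirubin, measured 7.16, 61.7 and 6.74 FPKM in the wild type and 10.2, 19.3 and 7.94 in the knockout, with wild-type library 2 far above the rest (-0.32 ± 0.82, limma adjusted p = 0.905). Ugt1a5 was high in the same library (49.6 FPKM, against 4.60 to 15.7 elsewhere), and Ugt1a6b in that library (38.3) and in knockout library 3 (71.1, against 2.00 to 5.43 elsewhere). Ugt1a9, with the largest fold change above 0 of the family, measured 7.80, 4.77 and 7.46 FPKM in the wild type and 7.56, 9.86 and 38.3 in the knockout, so that knockout library 3 alone stood out (1.03 ± 0.55, limma adjusted p = 0.613; 0.35 without it). Ugt1a2 was high in knockout library 2 alone (32.5 FPKM, against 7.10 to 9.95). Ugt1a7c held between 25.6 and 69.3% of the summed FPKM of the locus, and in knockout library 3 it was exceeded by Ugt1a6b. Ugt1a6a and Ugt1a10 had fold changes of 0.24 and 0.46. The 8 genes share their last exons, and how the reads there were divided is set by the deposited estimates. Summed, they gave 137, 240 and 104 FPKM in the wild type and 139, 154 and 199 in the knockout, with a log2 fold change of 0.10 ± 0.31 (limma adjusted p = 0.919).

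**Figure D3:**
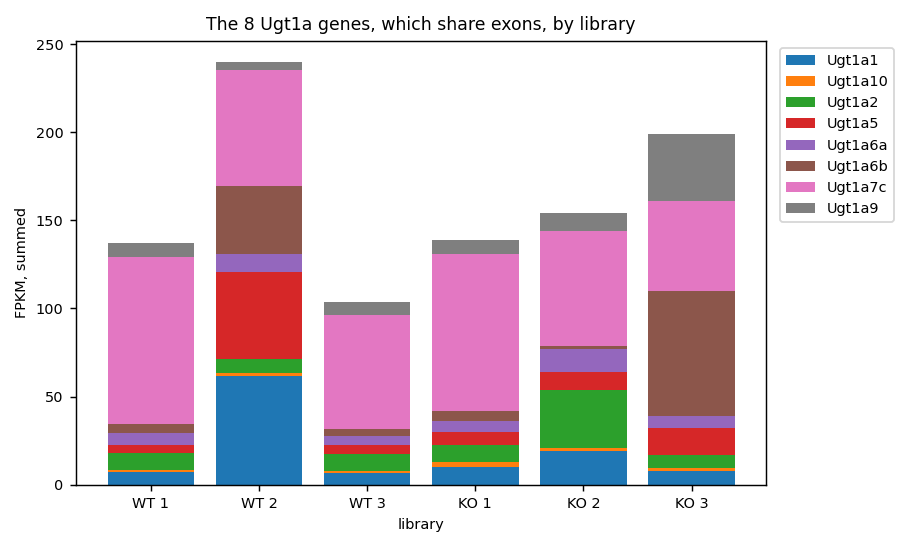
FPKM of the 8 Ugt1a genes stacked in each library (WT, wild type; KO, LIGHT knockout). The sum is highest in wild-type library 2, at 240 FPKM, and the share of Ugt1a7c drops to 27.4% there and to 25.6% in knockout library 3.

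The epoxide hydrolases did not separate the genotypes. Ephx2, the soluble enzyme that hydrolyses epoxides of fatty acids, measured 205, 179.7 and 107 FPKM in the wild type and 223, 197 and 147 in the knockout, with wild-type library 3 the lowest of the 6 (0.23 ± 0.27, limma adjusted p = 0.784). Leaving that library out turned the sign, to -0.043. Ephx1, the microsomal enzyme that acts on xenobiotic epoxides, measured 16.7, 21.6 and 21.7 and 17.7, 16.6 and 35.5. Knockout library 3 was the high one, and without it the fold change went from 0.13 to -0.21.

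Among the aldehyde dehydrogenases, 6 of the 18 tested had all knockout values above the wild type (background 7.76%): Aldh16a1 and 5 enzymes of amino acid, folate or carnitine metabolism. Aldh6a1, the methylmalonate semialdehyde dehydrogenase of valine breakdown and the most abundant of the family, measured 137, 139 and 102 FPKM in the wild type and 151, 189 and 258 in the knockout. The lowest knockout library was above the highest wild-type one (0.64 ± 0.22, limma adjusted p = 0.592; 0.44 without knockout library 3). Aldh4a1, of proline breakdown, measured 34.3, 39.5 and 33.4 and 46.1, 41.0 and 73.9 (0.53 ± 0.22, limma adjusted p = 0.592; 0.28 without it). Its knockout libraries 1 and 2 lay only slightly above the wild type. Aldh1l1, which oxidises formyl-tetrahydrofolate, measured 58.3, 53.3 and 45.6 FPKM against 65.5, 65.6 and 77.0 and kept most of its difference without the library that stood apart (0.40 ± 0.12, limma adjusted p = 0.592; 0.32 without it). Aldh9a1, which makes the precursor of carnitine, measured 98.5, 91.8 and 79.1 against 100.5, 105 and 129.8 (0.31 ± 0.14, limma adjusted p = 0.593). Aldh5a1, which removes succinic semialdehyde and was added after its values were seen, measured 11.5, 11.3 and 9.17 against 11.7, 12.2 and 16.6, where the groups were 0.16 FPKM apart. Aldh16a1, a family member of unsettled function, differed by little but with narrow groups: 6.70, 5.92 and 5.67 FPKM against 7.34, 7.61 and 7.71 (0.27 ± 0.094, limma adjusted p = 0.592; 0.26 without it).

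Other aldehyde dehydrogenases had overlapping groups. Chosen after the values were seen, Aldh2, the mitochondrial enzyme that clears acetaldehyde, had a fold change of 0.14 ± 0.13, Aldh3a2, which oxidises long-chain fatty aldehydes, one of -0.10 ± 0.13, and Aldh7a1, of lysine breakdown, one of 0.24 ± 0.12. Of 7 mitochondrial dehydrogenases, grouped after their values were seen (Aldh1b1, Aldh1l2, Aldh2, Aldh4a1, Aldh5a1, Aldh6a1 and Aldh18a1), 6 had a fold change above 0, with a median of 0.17, and without knockout library 3 the count was 4. Their sum was 274, 278 and 214 FPKM in the wild type and 298, 330 and 441 in the knockout. It contains Aldh4a1, Aldh5a1 and Aldh6a1, which were separated singly, so its lack of overlap is no separate result. The groups of Aldh1b1, Aldh1l2, Aldh2 and Aldh18a1 overlapped. The remaining genes outside the Aldh1a group, Aldh1b1, Aldh1l2, Aldh3b1, Aldh8a1 and Aldh18a1, ran from -0.23 to 0.17 with overlapping groups. Aldh3b2 was not tested, and its 3 knockout values of 0.0646, 0.0704 and 2.05 FPKM stood against 0.0478, 0.0424 and 0.136.

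The Aldh1a genes, among them those of enzymes that make retinoic acid from retinal, showed how far a single library reached. Aldh1a3 measured 0.173, 0.236 and 0.150 FPKM in the wild type and 0.166, 0.398 and 23.8 in the knockout, so that its fold change of 1.53 was that of knockout library 3. Without it the gene fell under the level filter. Aldh1a7, close kin of Aldh1a1, had the largest fold change below 0 in the family and was lowest in the same library: 73.0, 68.3 and 45.7 FPKM against 58.6, 57.9 and 24.8 (-0.47 ± 0.36, limma adjusted p = 0.691; -0.069 without it). Aldh1a2 measured 11.5 FPKM in that library and 30.0 to 50.7 in the other 5, and its fold change went from -0.42 to 0.21 when it was left out. Aldh1a1 had overlapping groups (-0.082).

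**Figure D4:**
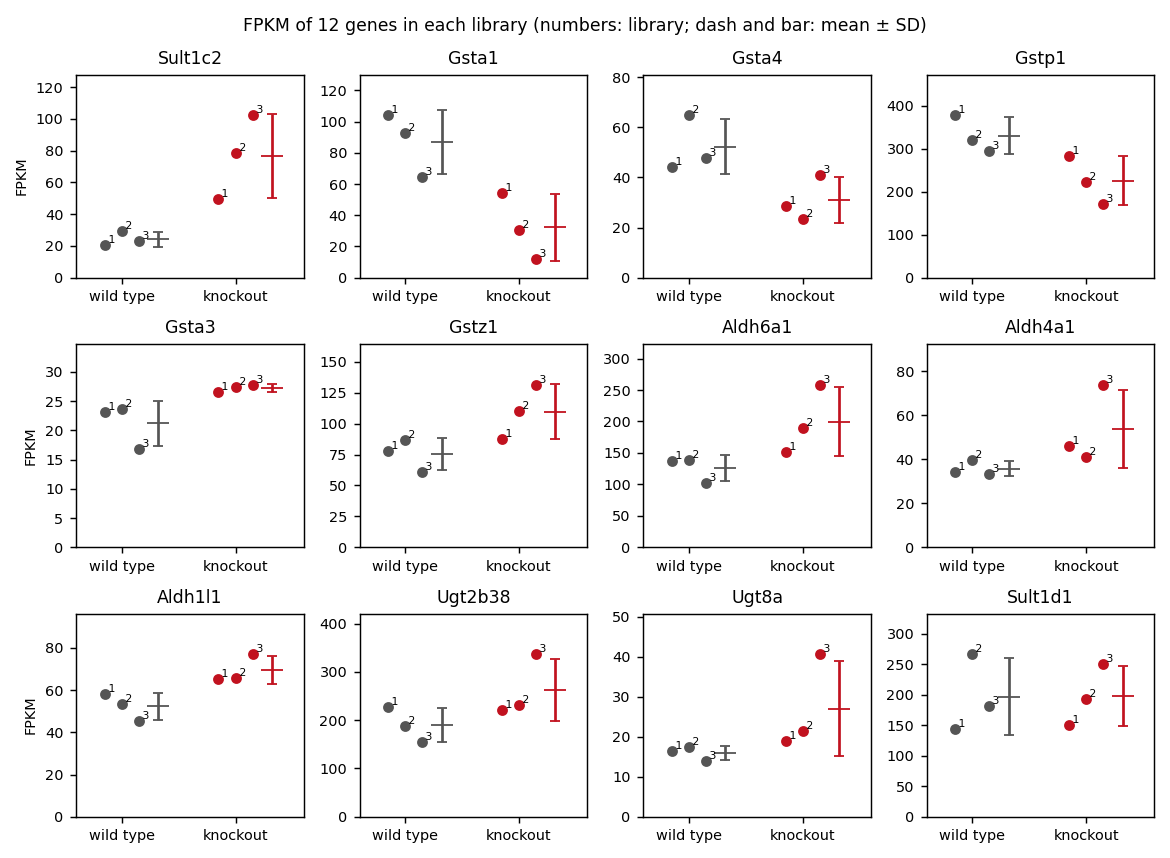
FPKM of 12 genes in each library, on axes from 0, with library numbers beside the points and the mean ± SD (n = 3) of each genotype. Sult1c2 sits at 20.3 to 29.2 in the wild type and 49.5 to 102 in the knockout, Gsta1, Gsta4 and Gstp1 stand lower in the knockout without overlap, and Sult1d1 spans about the same range in both.

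Knockout library 3 held the highest of the 6 values in 32 of the 62 genes (29.8% of all genes did) and the lowest in 13 (30.3%). Wild-type library 3 held the lowest value in 26 of the 62, against 15.2% of all genes. Leaving out wild-type library 3 gave a median of 0.058 with 38 of 62 above 0, and leaving out wild-type library 2 a median of 0.25. The medians over all genes were then 0.013 and -0.019, and the shares of all genes above 0 were not taken. Proximal tubule markers also stood higher: 11 of 13 had a fold change above 0, 8 without overlap (background 7.76%) and 0 past the test, with a median of 0.62 (0.32 without knockout library 3). Their summed FPKM was 5679, 5496 and 4929 in the wild type and 5366, 5318 and 6828 in the knockout. Most of that sum was Kap, with a fold change of -0.053, at 4207, 4099 and 3733 against 3775, 3717 and 4114. Lrp2 measured 57.3, 68.8 and 54.3 against 74.9, 96.2 and 157. Of the 10 injured-tubule markers 9 were below 0 and 0 passed, with a median of -0.70 (-0.099 without knockout library 3), and Havcr1, the injury marker KIM-1, measured 895, 770.3 and 833 FPKM in the wild type and 596, 415 and 143 in the knockout, without overlap (-1.34 ± 0.49, limma adjusted p = 0.592). The urothelial genes Upk2 and Upk1a were at no more than 0.565 FPKM outside knockout library 3 and at 6.07 and 5.72 in it. The 6 neutrophil markers were all below 0 (median -0.70) with a summed 63.1, 76.8 and 95.5 FPKM in the wild type and 45.1, 65.5 and 20.6 in the knockout, and the 6 macrophage markers had 5 above 0 (median 0.066), but 2 without knockout library 3 (median -0.17). Fold changes above 0 were found in 2 of 6 endothelial, 3 of 7 stromal, 3 of 6 distal, 6 of 7 collecting duct, 6 of 6 adipocyte, 6 of 6 urothelial, 4 of 4 liver and 0 of 1 adrenal markers, and 0 of these passed the test. Without knockout library 3 the counts were 1 of 6 endothelial, 2 of 7 stromal, 0 of 5 distal, 1 of 7 collecting duct, 0 of 2 adipocyte, 0 of 3 urothelial, 3 of 4 liver and 1 of 1 adrenal markers still tested. Jchain, a plasma cell gene and the only lymphocyte marker in the table, did pass, with 0.884, 0.284 and 0.784 FPKM in the wild type and 8.22, 7.16 and 7.44 in the knockout (limma adjusted p = 0.011). The part of cell makeup, injury or knockout library 3 in the enzyme differences was not tested.

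**Figure D5:**
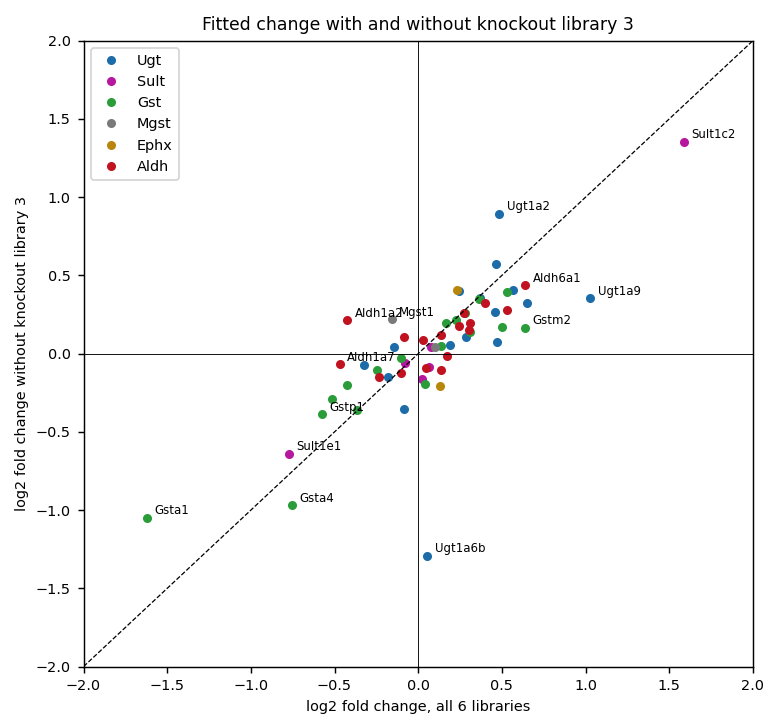
Fitted log2 fold change of each enzyme with all 6 libraries (horizontal) and without knockout library 3 (vertical), coloured by family, with the line of equality dashed. Sult1c2 and Gsta1 keep values of 1.35 and -1.05, whereas Ugt1a9, Gstm2 and Aldh1a7 lie nearer 0 without that library and Aldh1a2 and Mgst1 change sign.

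Genes around the enzymes were counted in lists for cofactor supply, glutathione turnover, efflux, removal of conjugates and regulation, and none passed the test in any of them. For glutathione synthesis and turnover, 15 of 18 genes tested had a fold change above 0 (median 0.25, and 0.11 without knockout library 3), 3 of them without overlap (background 7.76%) and 1 separated downwards (background 8.8%). Anpep, an aminopeptidase of the brush border, measured 18.1, 15.8 and 11.9 FPKM in the wild type and 26.1, 26.2 and 40.4 in the knockout (0.96 ± 0.22, limma adjusted p = 0.592). Nat8f1, a relative of the cysteine-conjugate N-acetyltransferase, measured 20.0, 22.6 and 15.9 against 34.9, 66.0 and 171 (1.88 ± 0.53; 1.27 without knockout library 3). Acy3, which deacetylates mercapturic acids, measured 109.9, 105 and 100.4 against 138, 162 and 341 (0.90 ± 0.32; 0.51 without it). In all 3 the groups did not overlap, and library 3 was the highest of the knockouts. The gene separated downwards was Gsr, at 121, 142 and 115 FPKM in the wild type and 113, 95.0 and 63.2 in the knockout (-0.51 ± 0.22). Named after their values were seen, Gclc, Gclm and Gss, of glutathione synthesis, were at 0.0016, -0.038 and 0.19, with overlapping groups. Slc7a11 fell under the level filter, with 0.436, 0.503 and 0.685 FPKM in the wild type and 0.313, 0.233 and 0.0894 in the knockout.

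Supply of the other cofactors showed no common direction. Of the 5 genes listed for supply of UDP-glucuronic acid, 3 were above 0 (median 0.099). Ugdh, the enzyme that makes UDP-glucuronic acid from UDP-glucose, measured 59.8, 51.7 and 38.2 FPKM in the wild type and 41.2, 32.9 and 21.7 in the knockout, overlapping (-0.65 ± 0.26, limma adjusted p = 0.592). Slc35d1, which carries UDP-glucuronic acid into the endoplasmic reticulum, had a fold change of 0.35 ± 0.13. Slc35b1 was at 0.10. Of the 6 PAPS genes 4 were above 0 (median 0.12, and -0.057 without knockout library 3). Slc35b2, a Golgi PAPS carrier, was separated downwards (background 8.8%) at -0.24, while Slc35b3 and Bpnt1 were at 0.10 and 0.15.

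Efflux pumps and the genes listed for removal of conjugates stood near 0. Of 8 pump genes 3 were above 0 (median -0.061), with Abcc2, the apical conjugate pump, at 90.6, 107 and 64.2 FPKM in the wild type and 88.7, 63.3 and 56.0 in the knockout (-0.32 ± 0.24), Abcb1b at 0.22 and Abcc3 at -0.19. Of the 5 genes listed for removal of conjugates (Gusb, Arsa, Arsb, Arsk and Sumf1) 2 were above 0 (median -0.049). Gusb, the lysosomal beta-glucuronidase, was at -0.18, Arsa at -0.24 and Arsk at 0.20. Of 13 regulators 5 were above 0 (median -0.0062). The smallest p among them was that of Ppara, a receptor for fatty acids, at 0.41 ± 0.18, followed by Rxra at 0.12 and Bach1, a repressor of antioxidant genes, at -0.13. Nfe2l2, which encodes NRF2 and was named after its value was seen, was at -0.14 ± 0.15.

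Enzymes of carbonyl and conjugating metabolism outside the 6 families were counted likewise. Of 18 further aldehyde and carbonyl enzymes 11 were above 0 (median 0.14), 2 separated upwards (background 7.76%) and 2 downwards (background 8.8%). Akr1b8, an aldo-keto reductase, measured 48.0, 47.6 and 61.9 FPKM in the wild type and 29.3, 32.1 and 11.2 in the knockout (-1.20 ± 0.38, limma adjusted p = 0.592; -0.75 without knockout library 3). Esd, which hydrolyses S-formylglutathione, measured 156, 141 and 130.1 against 126, 94.4 and 67.9 (-0.60 ± 0.22), and Akr7a5, an aldehyde reductase, 64.4, 54.4 and 47.8 against 65.2, 76.2 and 91.8 (0.47 ± 0.16). The first 2 were thus lower and the last higher in every knockout library. Of 15 other conjugating enzymes 9 were above 0 (median 0.20), 2 without overlap (background 7.76%): Acsm1, which activates acids for joining to glycine, at 0.44 ± 0.13, and As3mt, the arsenic methyltransferase, at 0.32 ± 0.11. Acsm3 was at 0.77 ± 0.28, with overlapping groups.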

How the data were processed

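Kidney RNA (TRIzol) went into KAPA stranded libraries, per the labels' protocols, and the submitters' processing notes name FastQC, HISAT2, StringTie and the mm10 genome. The gene models behind it, not given in the sources used here, were not checked. The authors deposited FPKM per gene and sample, in a table of all samples whose values the 6 sample files repeat. No counts were used here, so the depth is unknown and no count model or counting interval applies.

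The FPKM were tested as log2(FPKM + 1) with limma 3.58.1 in R 4.3.3 (empirical Bayes with a mean-variance trend, two-sided), 3 wild-type against 3 knockout samples, over the 12836 genes averaging 0.5 FPKM or more (190 removed), with Benjamini-Hochberg adjustment over all of them and a threshold of 0.05. An error is a standard error of the fold change or an SD over 3 samples. A fold change on this scale understates the change of low genes. The procedure was tested on simulated data. The enzymes, the 8 pathway lists and the 14 marker lists were chosen with earlier results of these data known, and 1 marker list is not reported here. Values in full were given for enzymes of at least 1 FPKM whose groups do not overlap (at most 8 in each direction, by smallest p), for the 2 most abundant of each family, and for the largest fold change above and below 0 in each family. Of each pathway list the 3 genes of smallest p were named. Other genes with values were named after these had been seen.

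Positions and shared 31-base words came from GENCODE M21, and promoters from RefSeq (GRCm38.p6). Protein sequences were not used here. Enzymes with at least 50% of the words of either in the other were also summed before fitting. The other alternatives were pseudocounts of 0.1 and 0.5, no level filter or one at 1 FPKM, 3 scalings, no trend, robust moderation, sample quality weights, a replicate block and leaving out each library.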

Additional observations from a re-analysis of the deposited data

How the results depend on the processing

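Of the 62 enzymes tested, 41 kept the sign of their log2 fold change under those of the 18 alternatives that gave them a value. Another 9 changed sign only when a library was left out, and 12 under another setting. Enzymes summed with a copy or under a level filter had no value of their own there. No trend, robust moderation and the replicate block leave the fold change as it is, so they could not change a sign. The labels do not say whether equal sample numbers pair the genotypes, and so few samples cannot settle it. Deviations of same-numbered samples from their group means correlated at 0.146, -0.133 and -0.0193. Those of differently numbered samples correlated at -0.144 to 0.180. With the replicate block limma called 0 genes over all, against 15 without it, and 0 enzymes either way. Sample quality weights raised the count over all genes to 52 (29 higher and 23 lower, 55.8% higher against 20.0%) and called 1 enzyme (Sult1c2). They left 34 of 62 enzymes above 0, not 42, with a median of 0.084, and took the Ephx median to 0.00073. The median over all genes was then 0.020, and the share of all genes above 0 was not taken for that fit. Leaving out 1 library gave 0 to 11 genes called over all, 0 enzymes called, 12 to 19 enzymes separated upwards and 6 to 7 downwards. Separation with fewer samples is easier to reach. Among these fits the share over all genes was taken only without knockout library 3 (11.2% upwards and 12.7% downwards). Enzymes separated downwards numbered 2, not 4, with median-of-ratios or upper-quartile scaling (Gsta1 and Gsta4), and those separated upwards 11 and 13. With each library scaled to the same FPKM sum, 4 were separated downwards and 14 upwards. No share over all genes was taken for these scalings. With near copies summed, Gsta4 and the pair of Gstp1 and Gstp2, counted once, were separated downwards.

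The fold changes that changed sign with sample quality weights were those of Aldh1a2 (0.33), Aldh1b1 (-0.083), Aldh1l2 (-0.066), Aldh3b1 (-0.054), Aldh8a1 (-0.18), Ephx1 (-0.20), Gstt3 (-0.16), Mgst3 (-0.0076), Sult1d1 (-0.14), Sult2b1 (0.00035), Ugt1a6b (-2.10) and Ugt2b5 (-0.11), and with a pseudocount of 0.1 that of Ugt1a6b (-0.016). Over the fits that leave out 1 library, the fold change ran from -0.36 to 0.11 for Aldh1a1, from -0.81 to 0.21 for Aldh1a2, from -0.093 to 0.12 for Aldh1b1, from -0.017 to 0.29 for Aldh1l2, from -0.12 to 0.11 for Aldh3b1, from -0.10 to 0.27 for Aldh8a1, from -0.21 to 0.32 for Ephx1, from -0.043 to 0.42 for Ephx2, from -0.19 to 0.19 for Gstt3, from -0.40 to 0.22 for Mgst1, from -0.17 to 0.29 for Sult1a1, from -0.18 to 0.26 for Sult1d1, from -0.84 to 0.67 for Ugt1a1, from -0.13 to 0.89 for Ugt1a2, from -0.65 to 0.94 for Ugt1a5, from -0.048 to 0.50 for Ugt1a6a, from -1.29 to 1.00 for Ugt1a6b and from -0.35 to 0.045 for Ugt1a7c. The causes were not tested. An exact permutation test of 3 against 3 samples cannot go below p = 0.1, so none was run on single genes, and without counts the depth behind low values such as those of Sult1e1 or Aldh3b2 is unknown.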
